A study of Mus musculus with 24 samples.

Results

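The 6 genes described here are the core enzymes of polyamine metabolism, Smox, Odc1, Amd1, Srm, Sms and Sat1, taken by symbol from the 24062 genes of both count tables and followed through all 9 groups of a mouse quadriceps RNA-seq study. Corrected muscle came from delEx44 animals given CRISPR-Cas9 by intraperitoneal injection at P4, the fourth day after birth, with separate AAV9 vectors for the sgRNA and for SpCas9. The delEx44 animals lack exon 44 of Dmd, the dystrophin gene, and WT animals are the third genotype; all are on C57BL/6. Each genotype had 3 sedentary libraries at 4 weeks, 2 libraries at 8 weeks from animals that had run downhill for 1 month (15 degrees of decline, 12 m/min, on alternate days), and 3 sedentary libraries at 18 months. For the 4-week and run animals each vector was given at 8e13 vg/kg (scAAV9-sgRNA, ssAAV9-SpCas9), and for the 18-month animals ssAAV9-sgRNA at 2.5e14 vg/kg and ssAAV9-SpCas9 at 5e13 vg/kg, so among corrected muscles dose, vector form and age at sampling cannot be told apart. The promoter that drives SpCas9 is not given in the sources used here.

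Polyamines are small, positively charged molecules that bind nucleic acids and are needed for growth and protein synthesis. Odc1, ornithine decarboxylase, makes putrescine. Srm, spermidine synthase, and Sms, spermine synthase, add aminopropyl groups to make spermidine and then spermine, with the group supplied by the product of Amd1, S-adenosylmethionine decarboxylase. Smox, spermine oxidase, turns spermine back into spermidine and releases hydrogen peroxide, and Sat1 acetylates spermidine and spermine for export or for oxidation by Paox. Smox is strongly expressed in mouse skeletal muscle, where its loss of expression accompanies atrophy and its forced expression enlarges fibres.

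Gene counts ran from 30552867 to 38090522 per library in the table of the 4-week and run groups and from 23125930 to 31254175 at 18 months. Levels are CPM, the TMM-scaled read counts of a library set against its depth, and levels were never compared across the 2 tables. Dmd, the targeted gene, stood at 155 to 172 CPM in corrected, 36.1 to 41.8 CPM in delEx44 and 204 to 239.6 CPM in WT libraries at 4 weeks, at 88.8 to 95.5, 40.7 to 41.8 and 148 to 160 CPM after running, and at 195 to 304, 84.2 to 86.7 and 337 to 425 CPM at 18 months, so its levels followed the labels. All 12 markers of mature fast fibres had counts in every library, which fits the tissue label. Their summed level was 196148 to 223706 CPM in corrected, 106383 to 135444 CPM in delEx44 and 223286 to 246042 CPM in WT libraries at 4 weeks. In the same order of genotypes it was 176485 to 201567, 162826 to 174322 and 192928 to 201971 CPM after running, and 140329 to 155000, 65801 to 82508 and 153436 to 162370 CPM at 18 months. The summed level of 16 macrophage markers was 759 to 1046 CPM in corrected, 2390 to 3484 CPM in delEx44 and 485 to 551 CPM in WT libraries at 4 weeks. In the same order of genotypes it was 416 to 572, 1540 to 1678 and 391 to 400.5 CPM after running and 462 to 1538, 1347 to 1495 and 399.8 to 522 CPM at 18 months, with no marker at 0 in any library. In delEx44 against WT muscle 15 of 16 macrophage markers rose at each stage. Of 13 markers of regenerating fibres 12 rose and 1 fell at 4 weeks, 11 rose after running and 13 rose at 18 months. Their summed level at 4 weeks was not higher in delEx44 libraries, at 10787 to 10863 CPM, than in WT libraries, at 10638 to 11890 CPM. It was higher in delEx44 than in WT libraries after running (3319 to 3637 against 1216 to 1713 CPM) and at 18 months (2058 to 2104 against 458 to 465 CPM). In bulk muscle, fewer cells of a type and less RNA per cell cannot be told apart. Library 3 of the 4-week WT mice held 287 CPM of erythroid and neutrophil markers against 3.84 and 7.44 CPM in the other WT libraries of that age, and library 3 of the 18-month corrected mice held 1538 CPM of macrophage markers, against 1073 and 462 CPM in the other 18-month corrected libraries.

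A gene is said to have risen or fallen where its adjusted p was under 0.05 in edgeR's quasi-likelihood test, adjusted over all genes of the fit by the Benjamini-Hochberg method. In delEx44 against WT muscle 4 of the 5 tested members passed at 4 weeks, 1 higher (25.2% of all genes) and 3 lower (25% of all genes), where 50.2% of 15013 genes passed. After running 3 passed, 1 higher (background 14.9%) and 2 lower (14.2%), where 29.1% of genes did. At 18 months 4 passed, 2 higher (28.8%) and 2 lower (23.8%), where 52.7% of 14337 genes did. In corrected against delEx44 muscle 4 passed at 4 weeks, 2 higher and 2 lower (22.1% and 24.2% of genes, 46.3% in all), 3 after running, all higher (10.8% of genes; 12.4% were lower and 23.2% passed in all), and 4 at 18 months, 2 higher and 2 lower (19.6% and 21.4% of genes, 41% in all). In corrected against WT muscle 0 members passed in edgeR at each stage, where 0%, 0.02% and 4.76% of all genes passed at 4 weeks, after running and at 18 months. At all 3 stages Smox and Sms fell in delEx44 against WT muscle and rose in corrected against delEx44 muscle, and Sat1 rose in delEx44 against WT muscle. The median log2 fold change of the 5 members in delEx44 against WT muscle was -0.55 at 4 weeks, -0.39 after running and 0.30 at 18 months, beside medians of 0.00, -0.01 and 0.05 over all genes. With 29.1% to 52.7% of all genes passing, a count of 3 or 4 of 5 is no result about these enzymes as a set; what follows gives each gene's own values.

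Smox (spermine oxidase, chr2:131491496-131525922, + strand, GRCm38) had the largest fold change of the 5 tested members at each stage in delEx44 against WT and in corrected against delEx44 muscle. At 4 weeks its level was 223, 374 and 410.1 CPM in corrected, 59.2, 54.3 and 90.0 CPM in delEx44 and 273, 242 and 263 CPM in WT libraries. All 3 delEx44 libraries lay below every corrected and every WT library, while corrected and WT libraries overlapped. Smox fell to 26.1% of the WT level in delEx44 muscle (log2 fold change -1.94 ± 0.24 SE, adjusted p = 5.28e-05, edgeR) and rose 4.95-fold in corrected against delEx44 muscle (log2 2.31 ± 0.24, adjusted p = 2.73e-05).

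After running Smox stood at 1021 and 776 CPM in corrected, 221 and 196 CPM in delEx44 and 489 and 408 CPM in WT libraries, and no 2 genotypes overlapped. It rose 4.3-fold in corrected against delEx44 muscle (log2 2.10 ± 0.29 SE, adjusted p = 0.000817). In delEx44 muscle it fell to 46.5% of the WT level (log2 -1.1 ± 0.28, adjusted p = 0.0134), a call lost without WT library 1 (log2 -0.97, adjusted p = 0.0701) or without delEx44 library 2 (log2 -1.02, adjusted p = 0.0829). The corrected mean lay 2.00-fold above the WT mean (log2 1.00 with a 95% interval of 0.38 to 1.62), with an adjusted p of 0.37 over all genes in edgeR and 0.0279 in DESeq2.

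At 18 months Smox was 221, 182 and 104 CPM in corrected, 24.9, 47.2 and 40.5 CPM in delEx44 and 131, 138 and 92.1 CPM in WT libraries. The delEx44 libraries again lay below all others, and corrected library 3, the one with the most macrophage transcripts, lay within the WT range. Smox fell to 31.2% of the WT level in delEx44 muscle (log2 -1.68 ± 0.34 SE, adjusted p = 0.00524) and rose 4.5-fold in corrected against delEx44 muscle (log2 2.17 ± 0.35, adjusted p = 0.00239; log2 2.46, adjusted p = 0.000726 without corrected library 3). Corrected and WT muscle did not differ past the threshold at 4 weeks (log2 0.37, 95% interval -0.13 to 0.87) or at 18 months (log2 0.49, 95% interval -0.29 to 1.27).

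**Figure D1:**
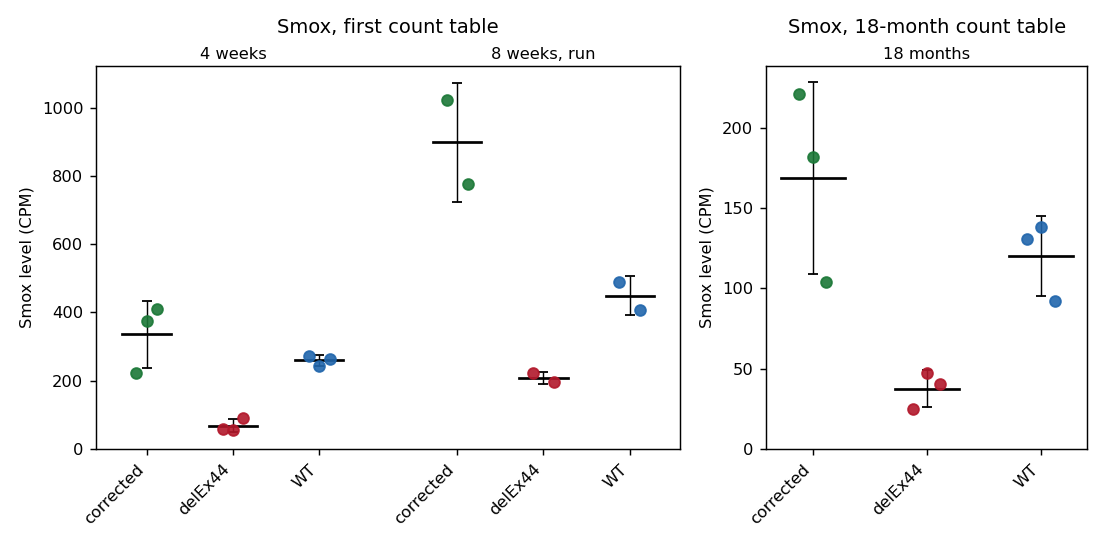
Smox level in CPM (vertical axis) for each library, in corrected, delEx44 and WT muscle at 4 weeks and after running (left panel) and at 18 months (right panel); points are libraries, bars are group means and whiskers 1 SD. The delEx44 libraries lie below the other genotypes at each stage, and the 2 corrected run libraries, at 1021 and 776 CPM, are above all others of their table.

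Within the first table the group means of Smox were ordered corrected run (898 ± 173 CPM, SD, n = 2), WT run (449 ± 57.4 CPM, n = 2), corrected at 4 weeks (336 ± 99.0 CPM, n = 3), WT at 4 weeks (259 ± 16.0 CPM, n = 3), delEx44 run (209 ± 17.8 CPM, n = 2) and delEx44 at 4 weeks (67.8 ± 19.3 CPM, n = 3). The libraries of WT run and of corrected at 4 weeks overlapped, as did those of corrected and WT at 4 weeks; the other neighbours in that order did not. At 18 months the order was corrected (169 ± 59.7 CPM), WT (120 ± 24.7 CPM) and delEx44 (37.5 ± 11.4 CPM, n = 3 each), with overlap between the first 2.

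The run animals were also 4 weeks older than the sedentary ones they are set against, so running and age cannot be told apart. In run against 4-week muscle 2 of 5 members passed in corrected animals, both higher (12.3% of genes; 13.5% were lower and 25.8% passed in all). In delEx44 animals 1 passed as higher (16.4% of genes) and 1 as lower (19.3%), with 35.7% in all, and in WT animals 1 as higher (13.4%) and 2 as lower (14.2%), with 27.6% in all. Smox rose in every genotype, 2.68-fold in corrected (log2 1.42 ± 0.25 SE, adjusted p = 0.00235), 3.08-fold in delEx44 (log2 1.62 ± 0.25, adjusted p = 0.000745) and 1.73-fold in WT muscle (log2 0.79 ± 0.25, adjusted p = 0.0372). The WT rise rested on all 5 libraries: without any 1 of them the adjusted p was between 0.0649 and 0.193, with log2 fold changes of 0.65 to 0.92, and it was 0.0545 with no filter on low counts. The delEx44 run libraries, at 196 to 221 CPM, lay below the 4-week WT libraries, at 242 to 273 CPM. Whether the genotype difference in Smox itself changed with running was tested as an interaction. The delEx44 against WT difference shifted by 0.83 ± 0.36 on the log2 scale, which did not pass (adjusted p = 0.263, 0.879% of genes passing), and the corrected against delEx44 difference by -0.20 ± 0.36 (adjusted p = 0.814, 1.42% passing). From 4 weeks to 18 months the same differences shifted by 0.24 ± 0.44 (adjusted p = 0.791, 10.9% passing) and by -0.11 ± 0.44 (adjusted p = 0.893, 15.9% passing), with 95% intervals of -0.72 to 1.20 and -1.07 to 0.84.

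Smox levels were also set against the fast-fibre transcripts of the same library, an expression chosen after the data were seen. Per 100000 reads of the 12 fast-fibre markers, Smox gave 114 to 183 reads in corrected, 42.1 to 66.4 in delEx44 and 108 to 111 in WT libraries at 4 weeks. After running it gave 439 to 506, 113 to 136 and 202 to 254 reads in the same order of genotypes, and at 18 months 74.0 to 143, 37.9 to 57.2 and 56.9 to 90.0 reads. On this scale delEx44 and WT libraries stayed apart at 4 weeks and after running and touched at 18 months.

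Sms (spermine synthase, chrX:157443855-157492287, - strand), which makes the substrate of Smox, moved in the same direction with a smaller size and a tight spread. At 4 weeks it was 84.0, 98.0 and 98.0 CPM in corrected, 49.3, 50.7 and 60.5 CPM in delEx44 and 92.6, 93.4 and 89.2 CPM in WT libraries. After running it was 102 and 86.5 CPM in corrected, 57.9 and 63.2 CPM in delEx44 and 93.1 and 95.3 CPM in WT libraries. At 18 months it was 163, 160.2 and 124 CPM in corrected, 69.9, 86.7 and 79.1 CPM in delEx44 and 124, 140.3 and 144 CPM in WT libraries. The delEx44 libraries were the lowest at each stage, with no overlap, and corrected and WT libraries overlapped at each stage.

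Against WT, Sms fell in delEx44 muscle to 58.3% at 4 weeks (log2 -0.78 ± 0.09 SE, adjusted p = 1.74e-05), 64.3% after running (log2 -0.64 ± 0.11, adjusted p = 0.00108) and 57.7% at 18 months (log2 -0.79 ± 0.12, adjusted p = 0.00042). Against delEx44, it rose in corrected muscle by 0.80 ± 0.09 at 4 weeks, 0.63 ± 0.11 after running and 0.92 ± 0.12 at 18 months on the log2 scale (adjusted p = 2.23e-05, 0.00172 and 0.000286). The corrected against WT differences were 0.02, -0.00 and 0.13, with 95% intervals within -0.24 to 0.39. Sms did not change past the threshold between the run and the 4-week mice in any genotype, with log2 fold changes of 0.01 in corrected, 0.18 in delEx44 and 0.04 in WT muscle. The delEx44 value passed without 4-week delEx44 library 3 (log2 0.28, adjusted p = 0.0409). Per 100000 fast-fibre reads Sms gave 42.8 to 47.4 reads in corrected, 39.3 to 46.3 in delEx44 and 37.4 to 41.8 in WT libraries at 4 weeks, 49.0 to 50.4, 35.6 to 36.3 and 47.2 to 48.2 after running, and 88.2 to 105, 102 to 106 and 76.2 to 91.4 at 18 months. On that scale delEx44 and WT libraries overlapped at 4 weeks, and delEx44 lay below WT after running and above it at 18 months. Of the 100-base stretches of the Sms transcript, 27.7% are shared with the copy Sms-ps, so a share of its reads could be assigned to either.

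**Figure D2:**
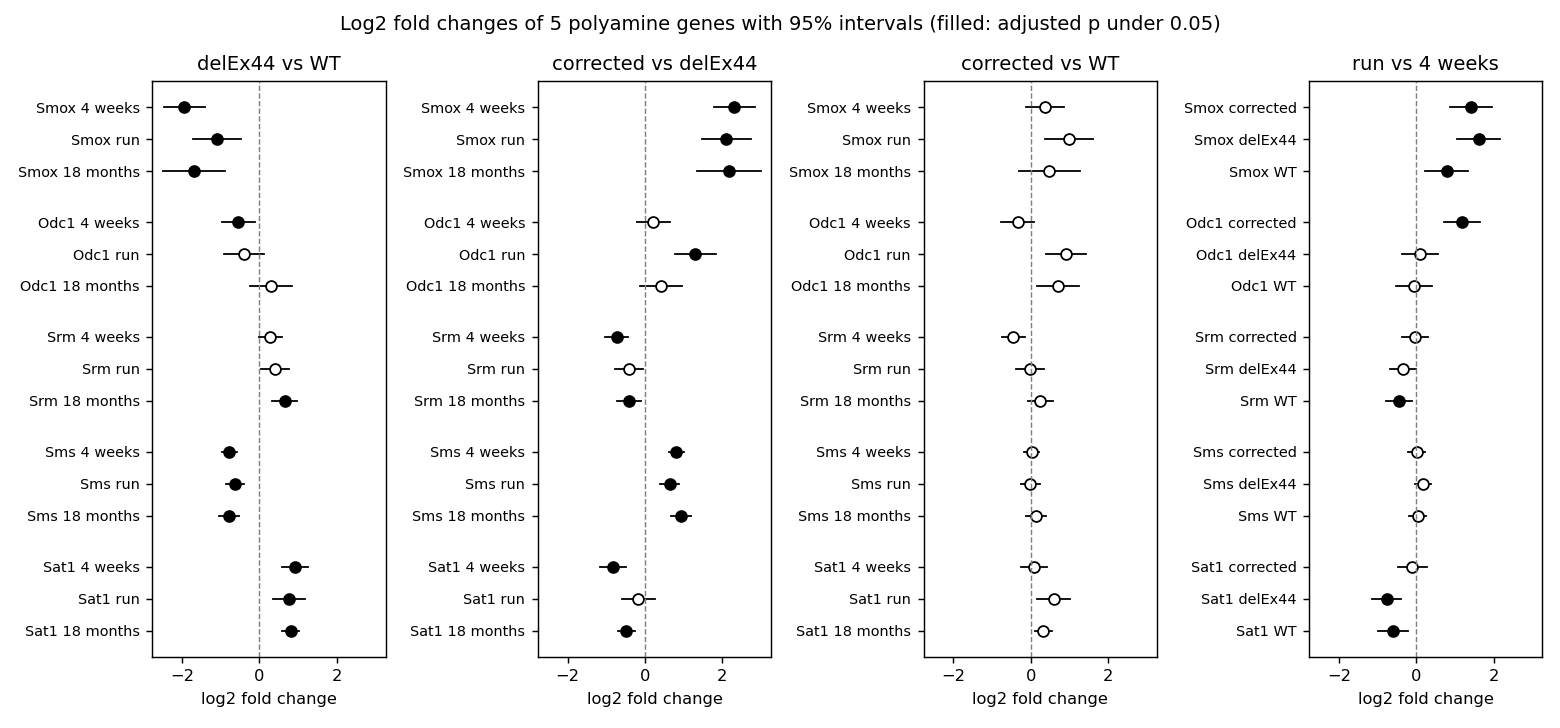
Log2 fold changes (horizontal axes) of Smox, Odc1, Srm, Sms and Sat1 with 95% intervals, for delEx44 against WT, corrected against delEx44 and corrected against WT at each stage, and for run against 4 weeks in each genotype; filled points have an adjusted p under 0.05 in edgeR's quasi-likelihood test. Smox reaches -1.94 in delEx44 and 2.31 in corrected muscle, and no corrected against WT point is filled.

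The starts of the 2 spermine genes are shown because Smox and Sms moved together across genotypes. The windows hold 250 bases before and 50 bases after the transcript start, from RefSeq on GRCm38.p6, and capitals mark the letters CACGTG, the E-box core that MYC and its partners bind. The Smox window is chr2:131491612-131491911 on the + strand and that of Sms chrX:157492238-157492537 on the - strand.
Smox: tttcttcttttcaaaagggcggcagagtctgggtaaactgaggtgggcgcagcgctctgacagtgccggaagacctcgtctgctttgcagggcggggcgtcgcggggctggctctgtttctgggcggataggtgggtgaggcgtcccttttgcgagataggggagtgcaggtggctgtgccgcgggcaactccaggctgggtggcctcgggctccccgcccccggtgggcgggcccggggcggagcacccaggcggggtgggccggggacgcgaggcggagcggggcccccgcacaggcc
Sms: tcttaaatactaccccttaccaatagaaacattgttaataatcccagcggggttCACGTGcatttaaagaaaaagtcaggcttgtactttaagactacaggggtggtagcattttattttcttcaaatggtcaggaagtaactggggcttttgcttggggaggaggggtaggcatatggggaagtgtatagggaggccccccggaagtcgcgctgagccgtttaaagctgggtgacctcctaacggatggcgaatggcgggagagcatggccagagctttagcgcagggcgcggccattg
The Smox window is 71% G and C, the Sms window shown 50.3% and the other Sms window 74.3%. Windows were found for 5 of the 6 members, 2 of them for Sms. CACGTG, which reads the same on both strands, occurred once, in the Sms window shown, with its first base at -196 from the start; 7.15% of all 32851 windows hold it. The palindromic glucocorticoid response element, searched on both strands, occurred in none of the members' windows and in 0.00913% of all windows.

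Odc1 (ornithine decarboxylase, chr12:17544794-17551505, + strand), the first enzyme of the pathway, followed another pattern. At 4 weeks it was 59.9, 78.0 and 86.1 CPM in corrected, 55.5, 56.1 and 81.7 CPM in delEx44 and 96.9, 94.7 and 90.2 CPM in WT libraries. Both other genotypes lay below WT there, though corrected against WT muscle did not pass (log2 -0.33 ± 0.19 SE, adjusted p = 0.618). The delEx44 fall to 68.5% of the WT level (log2 -0.55 ± 0.19 SE, adjusted p = 0.0354) ended in 7 of 11 other settings. These were library totals in place of TMM (log2 -0.15, adjusted p = 0.443), no filter on low counts (adjusted p = 0.051) and leaving out WT library 1 (0.0861), WT library 2 (0.0745), WT library 3 (0.058), delEx44 library 1 (0.137) or delEx44 library 2 (0.125).

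After running Odc1 reached 198 and 141 CPM in corrected, against 72.6 and 65.4 CPM in delEx44 and 107 and 74.1 CPM in WT libraries. It rose 2.46-fold in corrected against delEx44 muscle (log2 1.30 ± 0.24 SE, adjusted p = 0.00335), and this passed in 9 of 9 other settings. It also rose 2.27-fold from the 4-week to the run corrected mice (log2 1.19 ± 0.21, adjusted p = 0.00251), while the same step gave 0.10 ± 0.22 in delEx44 and -0.05 ± 0.22 in WT muscle, both short of the threshold. The interaction for corrected against delEx44 muscle, run minus 4 weeks, was 1.09 ± 0.31 with an adjusted p of 0.096 in edgeR, 0.0103 in DESeq2 and 0.0276 with library totals, so a difference between the genotypes in the response was not shown by the main test. Corrected run libraries lay above WT run libraries without overlap (log2 0.91, 95% interval 0.39 to 1.43), with adjusted p of 0.363 in edgeR and 0.0182 in DESeq2.

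At 18 months Odc1 was 153, 147 and 78.4 CPM in corrected, 86.0, 106 and 93.0 CPM in delEx44 and 76.5, 84.3 and 69.7 CPM in WT libraries. Corrected library 3 stood apart from the other 2 of its group and within the WT range. The corrected against WT difference (log2 0.72 ± 0.23 SE, adjusted p = 0.111 in edgeR and 0.0127 in DESeq2) became 0.96 with an adjusted p of 0.00185 without that library, and the corrected against delEx44 difference (0.41 ± 0.23, adjusted p = 0.193) became 0.70 with an adjusted p of 0.00052. In delEx44 against WT muscle the difference was 0.30 ± 0.23 (adjusted p = 0.304), with no overlap between the groups. It passed with library totals (log2 0.60, adjusted p = 0.0391), where the median of all genes was 0.35. The sign was opposite to that at 4 weeks, and the interaction was 0.83 ± 0.31 (adjusted p = 0.104). Per 100000 fast-fibre reads Odc1 gave 55.9 to 98.8 reads in corrected, 120 to 131 in delEx44 and 43.1 to 55.0 in WT libraries at 18 months. At 4 weeks the values were 30.6 to 38.5, 43.5 to 60.3 and 37.8 to 42.4 in the same order. After running they were 80.0 to 98.4, 37.5 to 44.6 and 36.7 to 55.4. On that scale delEx44 libraries lay above WT libraries at 4 weeks, opposite to the fall in CPM, and at 18 months. They overlapped WT libraries after running. Of the 100-base stretches of Odc1 19.6%, and of its 50-base stretches 42.2%, are shared with other annotated genes, so its counts may miss or mix a part of its reads.

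Srm (spermidine synthase, chr4:148591503-148594993, + strand) differed between genotypes with the opposite sign to Sms in delEx44 against WT and in corrected against delEx44 muscle at each stage. Of these 6 differences 3 passed. At 4 weeks it was 10.6, 11.2 and 9.76 CPM in corrected, 15.8, 18.2 and 18.4 CPM in delEx44 and 12.5, 13.9 and 16.4 CPM in WT libraries. The corrected libraries were below all others, and Srm fell there to 60.1% of the delEx44 level (log2 -0.73 ± 0.14 SE, adjusted p = 0.000748). After running it was 9.36 and 11.3 CPM in corrected, 11.9 and 15.7 CPM in delEx44 and 11.8 and 9.17 CPM in WT libraries, and no genotype difference passed. Without delEx44 library 1 both delEx44 against WT (log2 0.58, adjusted p = 0.0415) and corrected against delEx44 (-0.60, adjusted p = 0.0408) did. At 18 months it was 7.57, 6.04 and 6.46 CPM in corrected, 7.51, 10.4 and 8.78 CPM in delEx44 and 5.90, 5.88 and 5.11 CPM in WT libraries. In delEx44 muscle it rose 1.58-fold over WT (log2 0.66 ± 0.14, adjusted p = 0.00364). The fall in corrected against delEx44 muscle at 18 months (log2 -0.41 ± 0.14, adjusted p = 0.0412) was lost in 9 of 13 other settings, among them leaving out delEx44 library 2 (log2 -0.28, adjusted p = 0.158), delEx44 library 3 (-0.42, 0.0906), corrected library 2 (-0.34, 0.107) or corrected library 3 (-0.35, 0.105). With RLE size factors, with no filter on low counts and in DESeq2 its adjusted p was 0.0524, 0.0524 and 0.0635. The delEx44 against WT difference at 4 weeks, 0.29 ± 0.13, did not pass (adjusted p = 0.0897), but did without WT library 3 (log2 0.40, adjusted p = 0.0331) and with library totals (log2 0.68, adjusted p = 0.00154), a scaling that moved the median of all genes to 0.39.

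Sat1 (spermidine/spermine N1-acetyltransferase, chrX:155213132-155216449, - strand), the acetylating enzyme, was higher in delEx44 muscle. At 4 weeks it was 32.7, 37.4 and 34.9 CPM in corrected, 73.0, 50.9 and 63.5 CPM in delEx44 and 31.4, 37.7 and 29.8 CPM in WT libraries. It rose 1.9-fold over WT in delEx44 muscle (log2 0.92 ± 0.16 SE, adjusted p = 0.000414) and fell to 56.0% of the delEx44 level in corrected muscle (log2 -0.84 ± 0.16, adjusted p = 0.000979). At 18 months it was 43.3, 34.5 and 44.9 CPM in corrected, 61.0, 51.8 and 58.2 CPM in delEx44 and 31.4, 33.0 and 33.1 CPM in WT libraries, with all 3 genotypes apart. There the delEx44 rise over WT was 1.75-fold (log2 0.81 ± 0.10, adjusted p = 0.000136) and corrected muscle fell to 71.8% of delEx44 (log2 -0.48 ± 0.10, adjusted p = 0.00361). The corrected level was 1.26-fold the WT level (log2 0.33, 95% interval 0.11 to 0.56, adjusted p = 0.0825), a difference that passed without corrected library 2 (log2 0.44, adjusted p = 0.0032).

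After running Sat1 was 36.9 and 28.5 CPM in corrected, 42.8 and 30.7 CPM in delEx44 and 22.6 and 20.7 CPM in WT libraries. The delEx44 rise over WT was 1.70-fold (log2 0.76 ± 0.19 SE, adjusted p = 0.0118), lost without WT library 2 (log2 0.70, adjusted p = 0.0844) or delEx44 library 1 (log2 0.50, adjusted p = 0.108). Corrected and delEx44 libraries overlapped (log2 -0.17, 95% interval -0.58 to 0.25). Relative to 4 weeks, Sat1 fell in delEx44 (log2 -0.77 ± 0.18, adjusted p = 0.0056) and in WT muscle (log2 -0.60 ± 0.18, adjusted p = 0.0258) and was at -0.10 ± 0.17 in corrected muscle (adjusted p = 0.723). The delEx44 fall was lost without run library 2 (log2 -0.55, adjusted p = 0.0626). The WT fall was lost without WT 4-week library 2 (log2 -0.50, adjusted p = 0.083), WT run library 1 (-0.67, 0.0837) or WT run library 2 (-0.54, 0.151) and with library totals (-0.50, 0.0583). In the same step Srm also fell in WT muscle (log2 -0.45 ± 0.15, adjusted p = 0.045). Without WT 4-week library 2 (-0.47, 0.0776) or library 3 (-0.34, 0.136), without WT run library 2 (-0.28, 0.332), with library totals (-0.35, 0.149) or in limma-voom (-0.46, 0.0541), it did not pass. In delEx44 muscle the Srm step passed with library totals (log2 -0.50, adjusted p = 0.0305) or without run library 2 (-0.55, 0.0383), but not otherwise. The Sat1 interaction for corrected against delEx44 muscle, run minus 4 weeks, was 0.67 ± 0.25 (adjusted p = 0.173). Macrophage marker sums, given above, were higher in every delEx44 library than in the other genotypes at 4 weeks and after running, and 14 of 16 of those markers fell in run against 4-week delEx44 muscle. In corrected against delEx44 muscle 15 of 16 fell at 4 weeks and after running, and 0 fell at 18 months. At 18 months corrected library 3 had the highest macrophage sum, 1538 CPM, with Sat1 at 44.9 CPM, below all 3 delEx44 libraries. The part of macrophages in the Sat1 values was not tested.

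**Figure D3:**
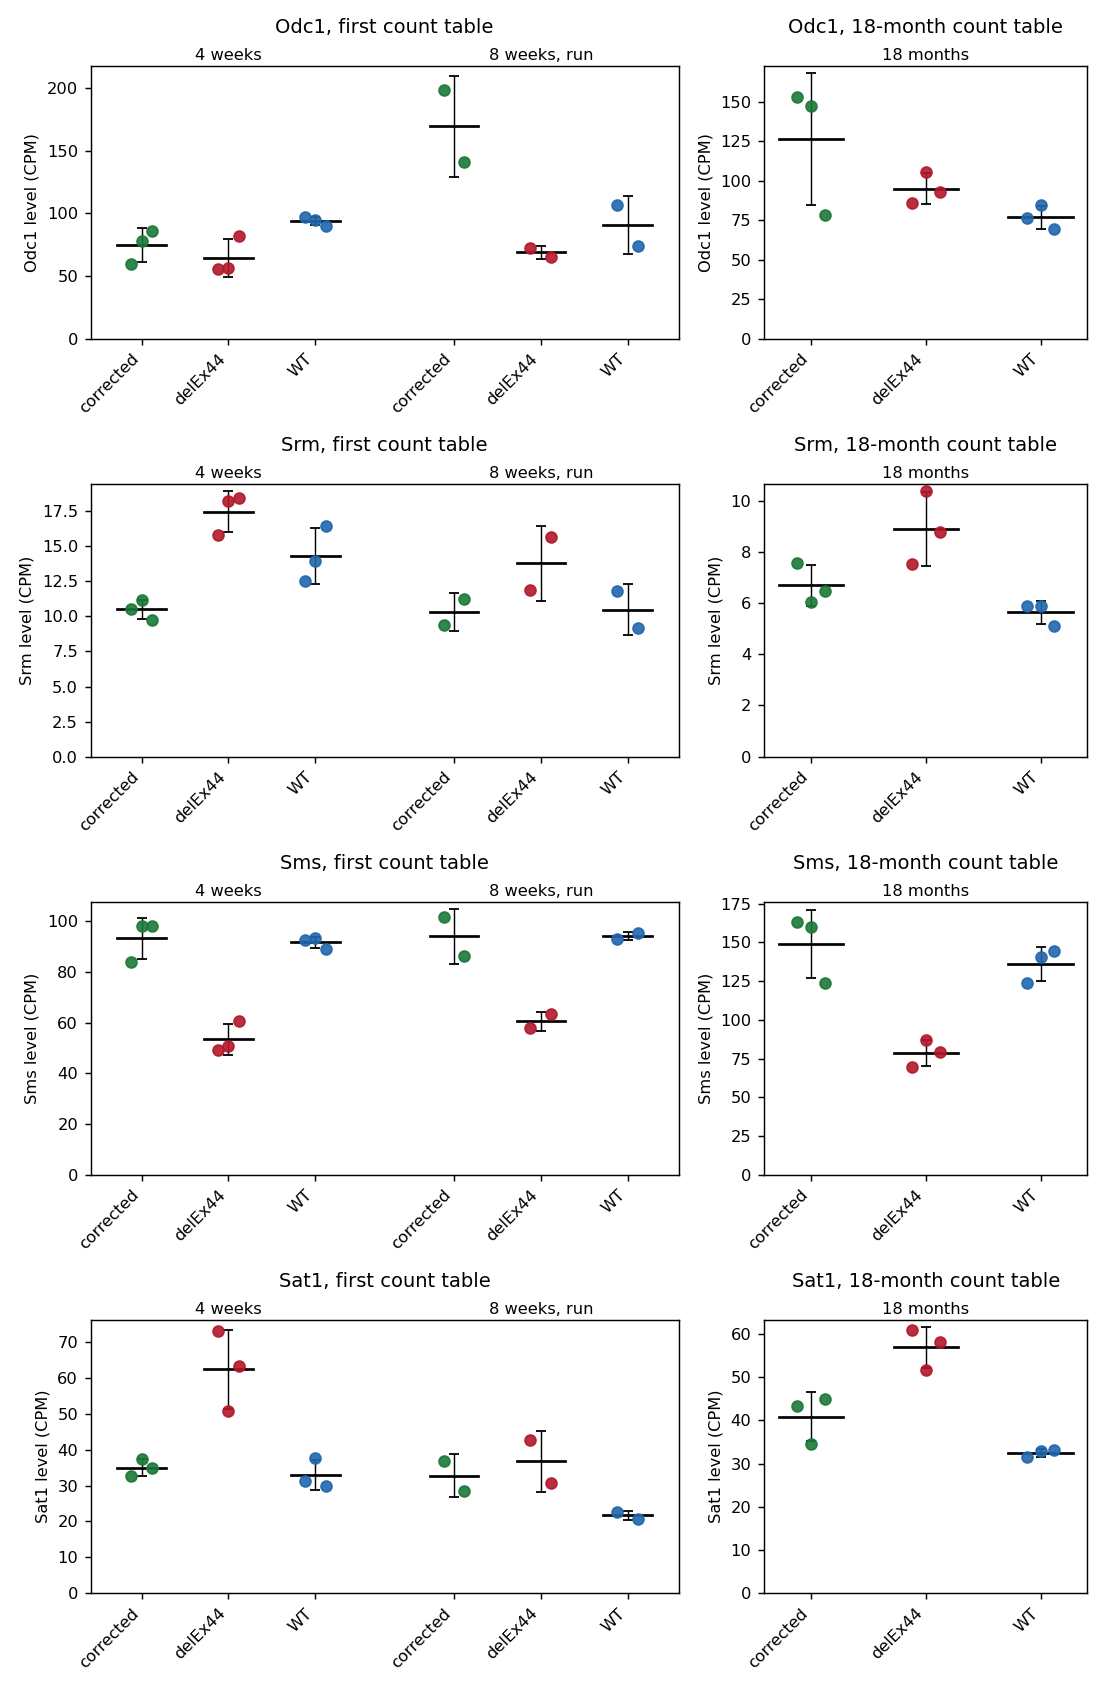
Levels in CPM (vertical axes) of Odc1, Srm, Sms and Sat1 in each library by genotype and stage, with group means (bars) and 1 SD (whiskers); the 18-month table is drawn apart from the first table. Sms is lowest and Sat1 highest in delEx44 muscle at 4 weeks and at 18 months, and Odc1 reaches 198 and 141 CPM in the corrected run libraries.

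Amd1 (S-adenosylmethionine decarboxylase, chr10:40287458-40302186, - strand) could not be tested. It had 0 counts in all 15 libraries of the first table, which with a floor of 3 counts allows up to 0.0638 to 0.108 CPM by library. At 18 months it had 1, 2 and 1 counts in corrected, 0, 0 and 0 in delEx44 and 1, 3 and 0 in WT libraries. Amd2, an intronless copy elsewhere on chromosome 10, had 0 counts in all 24 libraries. The 2 transcripts are nearly the same over their coding part, as these 81 bases of it (coding positions 757 to 837, GENCODE transcripts Amd1-201 and Amd2-201 on GRCm38) show around the only base in which the 1005-base coding sequences differ, which is in capitals.
Amd1: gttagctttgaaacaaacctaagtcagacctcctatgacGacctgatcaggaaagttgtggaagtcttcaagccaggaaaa
Amd2: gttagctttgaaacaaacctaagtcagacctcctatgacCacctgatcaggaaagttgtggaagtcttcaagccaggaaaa
Counted from the first coding base, that difference is G796C from Amd1 to Amd2, and D266H in the protein of 334 residues. Of the 100-base stretches of the Amd1 transcript 76.4% occur in other annotated genes, 73.2% in Amd2. The remaining 100-base stretches, of 3105 in all, were found in no other annotated gene. How reads that match both copies were counted is not given in the sources used here, nor is the gene annotation. The cause of the missing Amd1 counts was not tested, and the amount of Amd1 RNA in the muscle cannot be read from them. Similar sharing touches Oaz1, at 41.8% of its stretches, and none was found for Smox or Srm at that length. With stretches of 50 bases Srm shared 2.4% with Gm5364 and Smox still none.

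Levels of different genes were compared as mean CPM per kilobase of exon, with all annotated exons of a gene joined. This length was 3894 bases for Smox, 6010 for Sms, 2774 for Sat1, 3405 for Odc1 and 1599 for Srm. The longest protein-coding transcripts have 2299, 3717, 1162, 2208 and 1338 bases in that order, so ranks can depend on the length used. Stretches shared with other genes may also affect Odc1 and Sms counts, while none were found for Smox. Among the 5 members other than Amd1, whose amount cannot be read, Smox had the highest such level in 7 of 9 groups. In WT muscle at 4 weeks the levels per kilobase were 66.6 for Smox, 27.6 for Odc1, 15.3 for Sms, 11.9 for Sat1 and 8.94 for Srm. The exceptions were delEx44 muscle at 4 weeks, where Sat1 (22.5) and Odc1 (18.9) stood above Smox (17.4), with Srm at 10.9 and Sms at 8.90, and delEx44 muscle at 18 months, where Odc1 (27.9), Sat1 (20.5) and Sms (13.1) stood above Smox (9.64). In corrected run muscle Smox reached 231 and Odc1 49.9 CPM per kilobase.

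Ratios of counts within a library do not depend on scaling. Sat1 counts per Smox count were 0.0851 to 0.146 in corrected, 0.706 to 1.23 in delEx44 and 0.113 to 0.156 in WT libraries at 4 weeks. After running they were 0.0362 to 0.0368, 0.157 to 0.193 and 0.0461 to 0.0508 in the same order, and at 18 months 0.190 to 0.432, 1.1 to 2.45 and 0.239 to 0.360. The acetylating and the oxidizing enzyme thus had transcript ratios in delEx44 libraries that did not overlap those of either other genotype at any stage. Sat1 rose and Smox fell in delEx44 against WT muscle at each stage, so this ratio restates those calls and is no separate result. The ratios given here were not among the planned comparisons. Sms counts per Srm count were 7.96 to 10.0 in corrected, 2.78 to 3.29 in delEx44 and 5.43 to 7.38 in WT libraries at 4 weeks, and 19.2 to 26.5, 8.35 to 9.30 and 21.0 to 28.2 at 18 months, again with delEx44 apart from both.

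Libraries above their group in Smox tended to be above it in Odc1, though not in every group. After the group means were removed, log2 CPM of the 2 genes correlated at r = 0.906 over the 15 libraries of the first table and at 0.868 over the 9 libraries at 18 months. For Smox and Sms these values were 0.810 and 0.740, and for Smox and Sat1 0.386 and -0.520. In the run groups, with 2 libraries each, the 2 deviations of a gene are equal and opposite, so the points are not independent. The points share library, depth and scaling, and these correlations are a description.

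**Figure D4:**
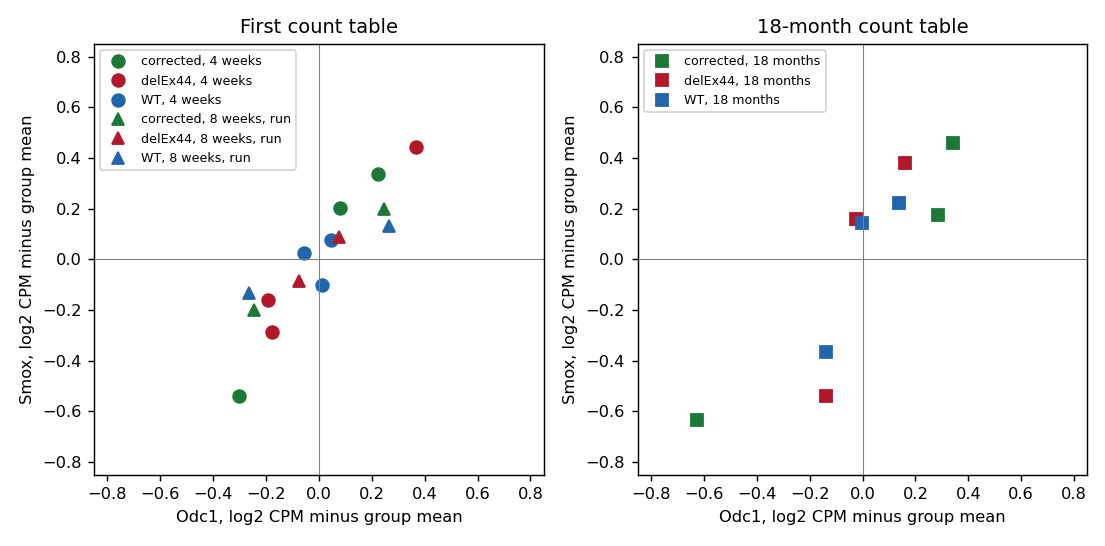
Deviation of each library from its group mean in log2 CPM, for Odc1 (horizontal axis) and Smox (vertical axis), in the first table (left) and at 18 months (right); colours are genotypes and shapes are stages. Libraries above their group in Odc1 tended to be above it in Smox (r = 0.906 and 0.868), and the 18-month corrected library 3 is the lowest point of the right panel in both genes.

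Among 10338 other genes with enough counts in both tables, the 5 whose log2 CPM followed Smox most closely, by the smaller of the Pearson r over 15 and over 9 libraries, were Hoxc10 (0.98 and 0.98), Cdc34 (0.95 and 0.96), Aldoa (0.95 and 0.97), Lpin1 (0.94 and 0.97) and Nt5dc3 (0.94 and 0.97). With Spearman's rho in place of r, 3 of these 5 were again among the first 5. Hoxc10, a homeobox gene, averaged 96.0 CPM in corrected, 69.6 CPM in delEx44 and 83.2 CPM in WT muscle after running, and 71.7, 46.9 and 71.7 CPM at 4 weeks. For Sms the closest were Prkca, a protein kinase C gene (0.98 and 0.97), and Ccdc91 (0.97 and 0.98). They were for Srm Spire1 (0.95 and 0.93) and Txlna (0.90 and 0.93), and for Odc1 Tmem57 (0.89 and 0.86) and Vta1 (0.80 and 0.78). For Sat1 they were Tmem189 (0.93 and 0.95) and Fam32a (0.93 and 0.93). Spearman's rho kept 2 of the 2 named genes for Srm, 1 for Odc1, 1 for Sat1 and 0 for Sms. For Sms it put U2af1l4 and Taf9b first. These r run over all groups of a table, so differences between groups enter them.

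Around the core enzymes 36 genes of 7 lists were followed, of which 35 were in the tables and 29 (first table) or 27 (18 months) could be tested. In delEx44 against WT muscle 5 were higher and 9 lower at 4 weeks, 5 higher and 4 lower after running, and 8 higher and 7 lower at 18 months. Of all genes 25.2% were higher and 25% lower, 14.9% and 14.2%, and 28.8% and 23.8% at these stages. In corrected against delEx44 muscle 4 were higher and 7 lower, 4 higher and 3 lower, and 7 higher and 4 lower, beside 22.1% and 24.2%, 10.8% and 12.4%, and 19.6% and 21.4% of all genes. Most of these counts lie near what the shares of all genes would give and are no result about the lists as a whole. Against WT, corrected muscle had 0 at 4 weeks and after running, and 1 at 18 months, the translation factor gene Eif5a2 (log2 0.56 ± 0.12 SE, adjusted p = 0.0329).

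The 9 genes of the methionine cycle and of methylthioadenosine salvage, which recycle the by-product of aminopropyl transfer, included none that rose in delEx44 against WT muscle. In that comparison 5, 3 and 5 of 9 were lower at 4 weeks, after running and at 18 months, beside 25%, 14.2% and 23.8% of all genes. Set against delEx44, corrected muscle had 3, 3 and 6 of 9 higher and 0 lower, beside 22.1%, 10.8% and 19.6% of all genes that were higher. The median log2 fold changes over the 9 genes were -0.26, -0.25 and -0.24 in delEx44 against WT and 0.19, 0.31 and 0.29 in corrected against delEx44 muscle, beside medians over all genes of 0.00, -0.01 and 0.05 and of -0.01, 0.00 and -0.03. Adi1, the dioxygenase of the salvage pathway, averaged 102 ± 6.03 CPM in corrected, 52.3 ± 2.52 CPM in delEx44 and 112 ± 2.03 CPM in WT muscle at 18 months (SD, n = 3 each). It fell in delEx44 against WT muscle by 1.1 ± 0.06 on the log2 scale there and by 0.82 ± 0.13 after running. Apip, of the same salvage pathway, fell by 0.51 ± 0.10 after running and 0.49 ± 0.09 at 18 months. Got1, an aspartate aminotransferase, fell by 0.52 ± 0.10 at 18 months. Mat2a, which makes S-adenosylmethionine, averaged 382 ± 36.3 CPM in corrected, 272 ± 26.0 CPM in delEx44 and 437 ± 11.4 CPM in WT muscle at 4 weeks. It fell in delEx44 there (log2 -0.68 ± 0.11, adjusted p = 0.000161) and stood at 0.02 ± 0.11 at 18 months.

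Of the polyamine transport genes 1 of 6 was higher in delEx44 than in WT muscle at 4 weeks, 3 of 6 after running and 4 of 5 at 18 months, and 0 were lower. Of all genes 25.2%, 14.9% and 28.8% were higher. Of the same genes 2 of 6, 2 of 6 and 3 of 5 were lower and 0 higher in corrected against delEx44 muscle, beside 24.2%, 12.4% and 21.4% of all genes that were lower. The delEx44 against WT difference itself shifted from 4 weeks to 18 months for 4 of 6 genes in the interaction test, 3 up and 1 down, beside 10.9% of all genes in either direction. Atp13a3, a polyamine-transporting ATPase, averaged 137 ± 17.2 CPM in corrected, 284 ± 20.1 CPM in delEx44 and 124 ± 17.4 CPM in WT muscle at 18 months, a delEx44 rise of 1.20 ± 0.12 on the log2 scale. Slc7a1, the cationic amino acid transporter that brings in arginine, rose there by 0.91 ± 0.16 and after running by 0.57 ± 0.20, and Slc18b1, a vesicular polyamine transporter, by 0.51 ± 0.12 at 18 months. Slc12a8 rose after running at low levels, 0.511 CPM in delEx44 against 0.116 CPM in WT libraries on average. Myc, a transcription factor that activates Odc1, averaged 11 ± 1.77 CPM in corrected, 41.2 ± 10.7 CPM in delEx44 and 7.58 ± 0.16 CPM in WT muscle at 18 months (delEx44 against WT log2 2.44 ± 0.19, corrected against delEx44 -1.90 ± 0.18). Odc1 in the same comparisons gave 0.30 and 0.41.

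Among genes that supply ornithine, Gatm, which makes guanidinoacetate and ornithine, rose in delEx44 muscle by 1.07 ± 0.19 at 4 weeks, 1.24 ± 0.24 after running and 0.41 ± 0.12 at 18 months on the log2 scale. Oat, ornithine aminotransferase, fell there by 0.47 ± 0.08 at 4 weeks and 0.71 ± 0.07 at 18 months. Arg1 passed at 4 weeks at a low level, 1.39 CPM in delEx44 against 0.106 CPM in WT libraries on average, and after running, where the delEx44 libraries held 0.079 and 1.52 CPM against 0.0297 and 0.0565 CPM in WT libraries. Arg2 passed in corrected against delEx44 muscle at 4 weeks, at 0.00900 against 0.295 CPM. Paox, which oxidizes the products of Sat1, averaged 1.66 ± 0.11 CPM in corrected, 2.81 ± 0.27 CPM in delEx44 and 1.75 ± 0.09 CPM in WT muscle at 4 weeks, a delEx44 rise of 0.68 ± 0.15 and a fall in corrected against delEx44 muscle of -0.76 ± 0.15. At the other stages it did not pass. Eif5a2 rose in delEx44 muscle by 0.77 ± 0.16 at 4 weeks and 0.66 ± 0.12 at 18 months.

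Of the regulators of ornithine decarboxylase, Azin1, the antizyme inhibitor, rose in delEx44 against WT muscle at 18 months (log2 0.46 ± 0.10 SE, adjusted p = 0.00309) and fell in the run against the 4-week mice in all 3 genotypes, by 0.73 ± 0.18 in corrected, 0.59 ± 0.17 in delEx44 and 0.96 ± 0.18 in WT muscle. Oaz1, the antizyme, had 9 to 26 counts per library in the first table and fell in delEx44 against WT muscle at 4 weeks (log2 -0.99 ± 0.31, adjusted p = 0.0171). Its level there was 0.291 to 0.396 CPM in corrected, 0.220 to 0.383 CPM in delEx44 and 0.595 to 0.650 CPM in WT libraries. Corrected libraries thus also lay below WT libraries, though that difference did not pass, and they overlapped delEx44 libraries. With 41.8% of its stretches shared with Oaz1-ps, its counts may hold a part of its reads. Whether that sharing accounts for counts this low was not tested.

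In corrected against WT muscle, where edgeR called 0 members at each stage, 1 had an unadjusted p under 0.05 at 4 weeks (Srm, log2 -0.45, 95% interval -0.74 to -0.15), 3 after running (Smox, Odc1 and Sat1) and 2 at 18 months (Odc1 and Sat1). DESeq2 called 0, 2 and 1 members at the 3 stages and limma-voom 0, 0 and 0. The Sat1 difference after running was 0.60 on the log2 scale (95% interval 0.17 to 1.02, adjusted p = 0.392). In the 4 interaction contrasts edgeR called 0 of 5 members each (0.879%, 10.9%, 1.42% and 15.9% of all genes passed). There were 1, 1, 2 and 1 at an unadjusted p under 0.05 for delEx44 against WT with running and with age and for corrected against delEx44 with running and with age. DESeq2 called 0, 0, 1 and 0 and limma-voom 0 in each.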

How the data were processed

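Polyadenylated RNA from flash-frozen quadriceps went into TruSeq libraries, 24 in all, per the labels' protocols. The labels do not say that each library is a separate animal, so p-values measure the spread between these libraries, which may be technical. The authors deposited raw read counts per gene in 2 tables. The submitters' processing notes name mm10 and, as tools, STAR 2.7.2b, Bowtie2 2.3.4.3, HTSeq, SAMtools 1.9, edgeR and Trim Galore. Their roles, the gene annotation and any strand setting were not stated, so overlapping and antisense genes cannot be separated. The 5 records that name no gene (27.4% to 34.2% of records per library in the first table, 42.2% to 48.3% at 18 months) were left out. At 18 months 2 WT columns carry names that also fit run WT samples. They were taken as 18-month WT because the other columns beside them match 18-month labels, and were assigned to no single replicate. No 2 libraries of a group agreed within sampling noise.

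Tests used edgeR 4.0.16 under R 4.3.3 (filterByExpr, TMM, robust quasi-likelihood fit, 1 mean per group, F-test, Benjamini-Hochberg adjustment, threshold 0.05). The 15 libraries of the first table (15013 genes), the 9 at 18 months (14337) and the 18 sedentary libraries (14937, for interactions with age) were fitted apart, in 16 comparisons. Intervals are 95% intervals from the fit, and SE is the standard error of the log2 fold change. The code was tested on simulated data. Alternatives were other scalings, no filter, DESeq2 1.42.0, limma-voom (limma 3.58.1), leaving out each library and a replicate block. Genes beyond the 6 members were named where they passed in a genotype comparison with a log2 fold change of at least 0.5 in size, with Amd2, Paox, Oaz1 and Azin1 added, and likeness used log2 CPM with a prior count of 2 and a mean of at least 5 CPM in a group of each table. Members and lists were chosen with earlier results of these data known. Positions come from GENCODE vM21.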

Additional observations from a re-analysis of the deposited data

Results flagged for a closer look

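Interactions set the run or the 18-month stage against 4 weeks, for delEx44 against WT and for corrected against delEx44 muscle. In these, none of the 5 tested members passed in the main edgeR fit. Odc1 passed in DESeq2 for corrected against delEx44 muscle with running (adjusted p = 0.0103). Sat1 passed for the same genotypes with age in 2 of 12 edgeR fits with 1 library left out. Among the other genes named, 10 had a genotype difference that shifted between 4 weeks and 18 months in edgeR's interaction test, and Dmd had one that shifted with running. Age and table coincide, so age, batch and counting cannot be told apart in these shifts.

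In delEx44 against WT muscle the log2 fold change of Myc shifted by 2.00 ± 0.30 SE from 4 weeks to 18 months (adjusted p = 0.000643). That of Atp13a3 shifted by 1.04 ± 0.15 (0.000321), that of Slc7a1 by 0.82 ± 0.20 (0.0129) and that of Slc18b1 by 0.71 ± 0.15 (0.00756). For these 4 genes the delEx44 difference passed at 18 months and not at 4 weeks. In corrected against delEx44 muscle the same 4 genes shifted the other way, Myc by -1.69 ± 0.29 (adjusted p = 0.00177), Atp13a3 by -0.87 ± 0.15 (0.00116), Slc7a1 by -0.64 ± 0.20 (0.0357) and Slc18b1 by -0.59 ± 0.15 (0.0177). The delEx44 libraries enter both comparisons, so the opposite signs are not independent.

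Mat2a shifted by 0.68 ± 0.15 in delEx44 against WT muscle (adjusted p = 0.00671) and Azin1 by 0.45 ± 0.14 (0.0438). Adi1 shifted by -0.63 ± 0.13 in delEx44 against WT (0.00473) and by 0.47 ± 0.13 in corrected against delEx44 muscle (0.0218). In corrected against delEx44 muscle Gatm shifted by 0.88 ± 0.26 (0.0334), Eif5a2 by 0.67 ± 0.19 (0.0275) and Arg1, at low counts, by 6.40 ± 1.68 (0.0219). The corrected against delEx44 difference of Dmd was smaller by 0.86 in the run than in the 4-week mice (log2 -0.86 ± 0.13, adjusted p = 0.0182).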

How the results depend on the processing

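Smox and Sms kept their direction and their call in corrected against delEx44 muscle at all 3 stages under every alternative run, as did both in delEx44 against WT muscle except for Smox after running, whose log2 fold change was -1.23 to -0.97 with 1 library left out. Library totals in place of TMM moved the median over all genes in delEx44 against WT muscle to 0.39 at 4 weeks, 0.12 after running and 0.35 at 18 months, so directions are relative to TMM; in that comparison and in corrected against delEx44 muscle Sat1, Sms and Smox kept theirs with library totals.

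Sign changes affected values that had not passed. With library totals these were Odc1 at -0.11 in corrected against delEx44 muscle at 4 weeks, Srm at 0.000908 and Sms at 0.016 in corrected against WT muscle after running, Odc1 at 0.052 (WT) and -0.055 (delEx44) and Srm at 0.025 (corrected) in run against 4 weeks, and the interactions with running of Odc1 in delEx44 against WT (-0.11) and of Smox in corrected against delEx44 (0.00178). Sms in corrected against WT muscle after running was 0.00735 with RLE size factors and 0.00723 in DESeq2. Counts of called members moved to 2 (after running) and 1 (18 months) in corrected against WT muscle with DESeq2, to 1 in run against 4 weeks in WT muscle with library totals, and to 1 in the corrected against delEx44 interaction with running, both with library totals and with DESeq2. The cause was not tested.

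With 1 library left out, the count for run against 4 weeks in WT muscle was 0 to 2, for corrected against WT at 18 months 0 to 1 and for the corrected against delEx44 interaction with age 0 to 1. Sms ranged from -0.012 to 0.096 (corrected against WT, 4 weeks) and -0.12 to 0.13 (after running), Srm from -0.19 to 0.17 and Sat1 in corrected against delEx44 muscle from -0.39 to 0.091 after running. For run against 4 weeks Odc1 in WT ranged from -0.34 to 0.19, and in corrected muscle Srm from -0.16 to 0.10, Sms from -0.11 to 0.13 and Sat1 from -0.29 to 0.087. Interactions with running of Odc1 and Sat1 in delEx44 against WT ranged from -0.084 to 0.44 and from -0.42 to 0.058, and that of Smox with age in corrected against delEx44 muscle from -0.36 to 0.14.

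At 18 months, delEx44 and corrected libraries with the same replicate number had correlations of deviations of -0.031, 0.025 and -0.049. Those with different numbers gave -0.065 to 0.105. With 3 libraries per group such values cannot show whether the numbers pair animals, and the labels do not say. In corrected against delEx44 muscle with the replicate block 3 of 5 members passed, with Srm at -0.40 (adjusted p = 0.144, edgeR). Fitted without a block, the same 6 libraries also gave 3 members that passed. Groups of 2 or 3 libraries limit the precision, Oaz1, Arg1, Arg2 and Slc12a8 rest on few counts, and Amd1 could not be tested.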
